A study of Mus musculus with 99 samples.

Results

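The genes described here are the nuclear genes of oxidative phosphorylation, the subunits of respiratory complexes I to IV, cytochrome c and the ATP synthase, with the complex I assembly factors named Ndufaf. They were chosen by symbol: rows that start with Nduf, Uqcr, Cox4, Cox5, Cox6, Cox7, Cox8 or Atp5, together with Sdha, Sdhb, Sdhc, Sdhd, Cyc1 and Cycs. Of 55291 genes measured, 113 matched, 14 of them with -ps in the symbol were left out, and 99 remained. They were measured in 99 single cells of the C57BL/6 mouse cochlea by full-length Smart-Seq HT cDNA sequencing. The 32 outer hair cells (OHCs) came from Slc26a5-CreER/+; Ai9/+ mice at postnatal day 30. The 67 converted inner hair cells (cIHCs) came from Slc26a5-CreER/+; Rosa26Tbx2/+ mice at postnatal day 42, and are OHCs made to express Tbx2 ectopically. Both groups carry the same inducible Cre, driven from the Slc26a5 locus that is active in OHCs, and all cells were picked by hand for tdTomato. OHCs of an earlier study by the same group were not analysed here. No animal is named for any cell and no inner hair cell from an unmanipulated cochlea forms a group, so each group counts as 1 sample. The cells of a group are not replicates of its condition. No p-value is therefore given, and age, genotype, sex and animals cannot be told apart as the source of a difference. Sex-linked reads differed between the groups: Y-linked reads were found in 24 OHCs and 12 cIHCs, and Xist reads in 4 OHCs and 55 cIHCs.

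Electrons from NADH enter the respiratory chain at complex I and those from succinate at complex II, pass through complex III and cytochrome c to complex IV, and the proton gradient built on the way drives the ATP synthase, complex V. Most subunits are encoded in the nucleus and imported, while a few core subunits of complexes I, III, IV and V are encoded in mitochondrial DNA. All subunits of complex II are nuclear, and its enzyme, succinate dehydrogenase, also belongs to the citric acid cycle. Hair cells rely on mitochondrial ATP to keep ion gradients and calcium handling running during continuous stimulation.

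Sequencing depth was 5656512 to 9287413 counts in an OHC and 4677682 to 13792672 counts in a cIHC. Reads fell on a median of 6068.5 genes per OHC and 8546 per cIHC, and 31 of 67 cIHCs exceeded every OHC in this number. All 6 general hair cell markers had reads in both groups. The 4 OHC markers, Slc26a5 among them, summed to 48712 CPM (counts scaled to a library total of 1e6) in the pooled OHCs and 259 CPM in the pooled cIHCs, and the 4 inner hair cell markers, Slc17a8 among them, to 621 and 5539 CPM. Markers of supporting cells summed to 38.2 and 21.9 CPM, of glia to 13.7 and 8.18 CPM, and of blood and macrophages to 4.27 and 53.3 CPM. Of that last list 5 of 7 genes had reads in OHCs and 4 in cIHCs, and its summed level per cell reached 67.0 CPM in OHCs and 336.9 CPM in cIHCs. C1qb made most of the difference, with no OHC read and 48.2 CPM in the pooled cIHCs, where 35 of 67 cells had reads, while C1qa, Tyrobp and Lyz2 were at 0 in cIHCs. The part of these reads in the results was not tested. A cIHC that stood apart was P42_cIHC replicate 49, whose members summed to 60753 CPM against 34504 CPM in the next highest cIHC. In this cell 83 of the 88 members that passed the filter given below lay above the cIHC median, and 40 of them had their highest cIHC value there. Its Tbx2 level was 128.6 CPM against a cIHC median of 583.9 CPM, and it also had the highest summed level of supporting cell markers of any cIHC, 865.5 CPM. Another was P42_cIHC replicate 11, whose subunits encoded in mitochondrial DNA summed to 2509 CPM, where the next lowest cIHC had 13652 CPM.

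The cIHCs also fell into 2 sets by title number, which was seen in the values, and the labels give no batch for either. Mitochondrially encoded subunits summed to a median of 54865 CPM in the 20 cIHCs titled 1 to 20 and to 24546 CPM in the 47 titled 21 to 67. Without replicate 11 the first set ran from 36542 to 77853 CPM, and the second ran from 13652 to 45594 CPM. Total counts had medians of 6771368 and 8334044, and genes with reads medians of 7948.5 and 8641. Xist reads without Y-linked reads were found in 8 cells of the first set and in all 47 of the second, and the 12 cIHCs with Y-linked reads were all in the first. What set these cells apart was not tested. Only part of the results are given for both sets, and pooled values elsewhere can hide differences between them.

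Most nuclear oxidative phosphorylation genes took a smaller share of the counts in cIHCs than in OHCs. The summed level of all members ran from 28716 CPM through a median of 35027 to 45917 CPM in OHCs. In cIHCs it ran from 21513 CPM through a median of 26940 to 60753 CPM. The groups overlapped, but 43 of 67 cIHCs lay below the lowest OHC, and the only cIHC above the OHC median was replicate 49. All 20 cIHCs of titles 1 to 20 lay below every OHC, with a median of 25348 CPM, as did 23 of the 47 of titles 21 to 67, with a median of 28961 CPM. When each cIHC was set against each OHC, the cIHC was the higher in 8.02% of these pairs. Pooled over cells, the members held 3.50% of OHC counts and 2.83% of cIHC counts, a log2 ratio of cIHC over OHC of -0.31, which was -0.47 for titles 1 to 20 and -0.25 for titles 21 to 67. The complexes differed: complex IV was the lowest relative to OHCs, complexes I, III and V were lower by less, and complex II was higher. The counts are shares of each library, so fewer transcripts of these genes and more transcripts of other genes cannot be told apart.

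**Figure D1:**
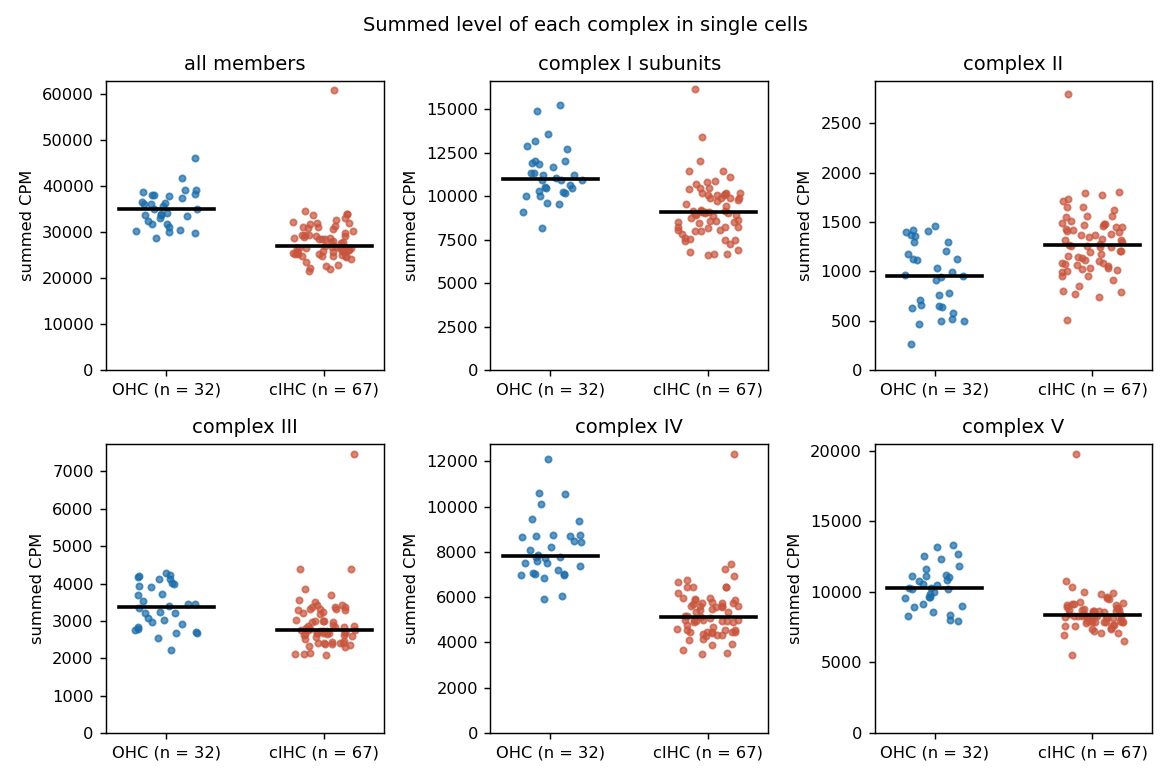
Summed CPM per cell (linear axes from 0) of all members and of 5 complexes, with 1 point per cell, 32 OHCs and 67 cIHCs, and a black bar at the group median; sideways position within a group has no meaning. The medians of all members are 35027 CPM in OHCs and 26940 CPM in cIHCs, complex II is the panel in which the cIHC median is the higher, and the isolated cIHC point near 60753 CPM in the first panel is replicate 49.

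Gene by gene, 88 of the 99 members reached 10 CPM in 1 or both pooled groups. Their median log2 ratio was -0.23, with 29 members higher and 59 lower in cIHCs. Over all 10041 genes that reached 10 CPM the median was 0.25, with 5927 genes higher and 4114 lower. Scaling by the trimmed mean of M values (TMM) or by the median of ratios moves every ratio by -0.19 or -0.20, so directions near 0 depend on the scaling, whereas the distance from the median of all genes does not. After TMM scaling 16 members were higher and 72 lower. Relative to the median of all genes the members' median was -0.48, and 76 of the 88 lay below it.

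Large differences were few. At 2-fold, 2 of the 88 members were higher in cIHCs, Uqcrb and Cox7a1, where the share among all genes was 26.3%. In the other direction 4 members were lower, Ndufa5, Ndufb4, Ndufa8 and Cox4i1, where the share among all genes was 14.3%. At 1.5-fold, 7 members were higher and 16 lower, beside 37.7% and 22.2% of all genes. The shares of members past either fold were thus smaller than those of all genes, and the members' shift consisted of many small differences. Among the 2551 genes that reached 100 CPM, 18.9% were higher and 13.3% lower by 2-fold, and the 81 members among them counted 1 and 4, with a median of -0.24 against 0.15 for all these genes. Without replicate 49 the median over members was -0.28, and the 2-fold counts were 1 higher and 4 lower. For titles 1 to 20 the median was -0.43, with 1 higher and 14 lower beside 24.9% and 17.7% of all genes. For titles 21 to 67 it was -0.15, with 4 higher and 3 lower beside 26.9% and 14.8%.

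**Figure D2:**
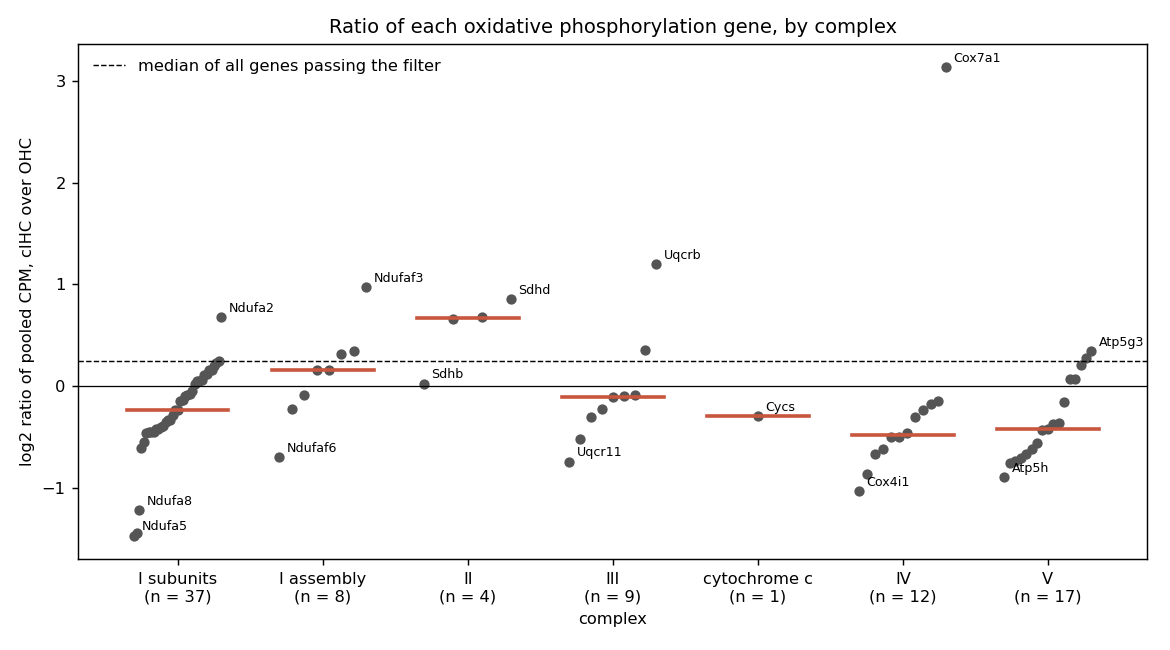
Log2 ratio of pooled CPM, cIHC over OHC, for each of the 88 members that reached 10 CPM, in columns by complex and ordered by value within a column; red bars are column medians, the solid line is 0 and the dashed line the median of all genes at 0.25. Complex II is the column whose median, 0.67, lies above the dashed line, and Cox7a1 at 3.14 and Uqcrb at 1.20 stand apart from their columns.

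Promoters of nuclear respiratory genes are known for sites of the factors NRF1 and GABPA. RefSeq promoter windows on GRCm38.p6 were matched by symbol or synonym for 77 of the 99 members, and the 250 bases before each start were searched on both strands. The NRF1 letters GCATGCGC were present for 10 of 77 members, 13.0%, against 2.56% of 27025 genes. The ETS family letters CCGGAAGT, which GABPA binds, were present for 3.90% of members and 3.23% of genes. For the SP family letters GGGGCGGG the shares were 22.1% and 16.8%, for the estrogen-related receptor letters TCAAGGTCA 1.30% and 0.42%, and for the YY1 letters AAGATGGC 1.30% and 1.83%. These matches describe the letters of the windows and are not measured binding. The 10 members with the NRF1 letters had a median log2 ratio of -0.24, from -1.22 for Ndufa8 to 0.12 for Ndufa6. Of these, 8 were lower and 2 higher, and all 10 lay below the median of all genes. The 64 matched members without the letters that reached 10 CPM also had a median of -0.24. Of those 64, 43 were lower and 21 higher, and 55 lay below the median of all genes.

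Shown here are 5 windows of 150 bases, 3 that carry the NRF1 letters and those of 2 members lower by 2-fold, each ending before the outer start of the gene in RefSeq or GENCODE, 5′ to 3′ in the direction of transcription. Capitals mark the NRF1 letters or their reverse complement, which together read GCGCATGCGC where they overlap, and the SP family letters, read here as CCCGCCCC. The windows lie at chr6:50566570-50566719, minus strand (Cycs), chr5:115348982-115349131, minus strand (Cox6a1), chr15:82354323-82354472, minus strand (Ndufa6), chr2:36049407-36049556, minus strand (Ndufa8) and chr16:37654454-37654603, minus strand (Ndufb4). Ndufa6 is shown as the NRF1-bearing member with the highest ratio and was picked after its value was seen. The NRF1 letters of Ndufa8 lie between its GENCODE and RefSeq starts and so outside the stretch shown.
Cycs: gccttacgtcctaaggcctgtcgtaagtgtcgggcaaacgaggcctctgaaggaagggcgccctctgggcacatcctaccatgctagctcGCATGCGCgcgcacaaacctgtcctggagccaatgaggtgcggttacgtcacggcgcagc
Cox6a1: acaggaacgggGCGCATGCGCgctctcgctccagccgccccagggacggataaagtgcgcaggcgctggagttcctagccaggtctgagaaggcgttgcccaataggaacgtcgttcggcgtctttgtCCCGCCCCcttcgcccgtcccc
Ndufa6: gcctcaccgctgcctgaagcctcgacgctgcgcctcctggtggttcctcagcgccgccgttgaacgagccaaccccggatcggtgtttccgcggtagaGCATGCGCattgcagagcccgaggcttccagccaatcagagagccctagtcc
Ndufa8: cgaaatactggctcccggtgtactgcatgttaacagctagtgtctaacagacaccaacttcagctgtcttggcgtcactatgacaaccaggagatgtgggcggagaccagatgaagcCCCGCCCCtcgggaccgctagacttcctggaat
Ndufb4: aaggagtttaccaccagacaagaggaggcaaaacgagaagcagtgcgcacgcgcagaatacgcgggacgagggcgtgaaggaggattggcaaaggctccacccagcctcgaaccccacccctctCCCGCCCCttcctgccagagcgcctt
Of the 3 genes shown with the NRF1 letters, Cycs had a log2 ratio of -0.30, Cox6a1 of -0.18 and Ndufa6 of 0.12. With TMM scaling all 3 ratios were below 0.

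Complex I, the NADH dehydrogenase, was represented by 41 subunit symbols, of which 37 reached 10 CPM. Their summed level had a median of 11011 CPM in OHCs (8165 to 15283) and 9106 CPM in cIHCs (6641 to 16161), and 14.6% of cell pairs had the higher value in the cIHC. That share was 2.66% for titles 1 to 20 and 19.6% for titles 21 to 67. The highest cIHC was replicate 49, and the next highest had 13417 CPM. The median log2 ratio over subunits was -0.24, with 12 higher and 25 lower, or 4 and 33 after TMM scaling, and 36 of 37 lay below the median of all genes. The median was -0.49 for titles 1 to 20 and -0.13 for titles 21 to 67. It was 0.05 between the 2 OHCs and 36 cIHCs within 7081 to 8567 genes with reads, the range that both groups share. The 7 nuclear core subunits, among them those that hold the flavin and the iron-sulfur centres, had a median of -0.34, with Ndufv1 the lowest at -0.55, and all 7 were lower after TMM scaling. The 10 accessory subunits of the Ndufb series had a median of -0.29 and the 13 of the Ndufa series of -0.14.

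The 3 members of complex I that were lower by 2-fold are all accessory subunits. Ndufa5, which sits on the matrix arm of the complex, ran from 316.8 CPM through a median of 618.4 to 1121 CPM in OHCs. In cIHCs it ran from 102.8 CPM through a median of 216.8 to 436.5 CPM. The groups overlapped only a little: 59 of 67 cIHCs lay below every OHC and 26 of 32 OHCs above every cIHC. The pooled levels were 647.1 and 232.7 CPM, a log2 ratio of -1.48 (95% counting interval -1.49 to -1.47), or 2.78-fold higher in OHCs. Intervals given in brackets after a log2 ratio cover counting error only, since amplified reads were counted without tags for single molecules and the animals are not known. Ndufa5 lies on the minus strand at chr6:24518666-24528013 (mm10) and shares no exon base with another gene in GENCODE M21.

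Ndufb4, a subunit of the membrane arm, ran from 212.8 CPM through a median of 611.4 to 1079 CPM in OHCs and from 115.4 through 223.7 to 578.2 CPM in cIHCs. All 67 cIHCs lay below the OHC median, and the pooled log2 ratio was -1.45 (-1.46 to -1.43). The processed pseudogene Ndufb4c, also a member, pooled to 5.16 and 1.83 CPM, and how reads that match both were counted is not given in the sources used here. Ndufa8, a membrane-arm subunit facing the intermembrane space, ran from 84.5 CPM through a median of 459.2 to 826.2 CPM in OHCs and from 23.5 through 181.9 to 463.1 CPM in cIHCs. Here the groups overlapped more widely, with 10 cIHCs below every OHC, and the log2 ratio was -1.22 (-1.23 to -1.21). Among the 4 OHCs and 55 cIHCs with Xist reads it was -0.78 and so under 2-fold, whereas among the 24 OHCs and 12 cIHCs with Y-linked reads it was -1.77. For titles 1 to 20 the ratio was -1.88 and for titles 21 to 67 -1.06.

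**Figure D3:**
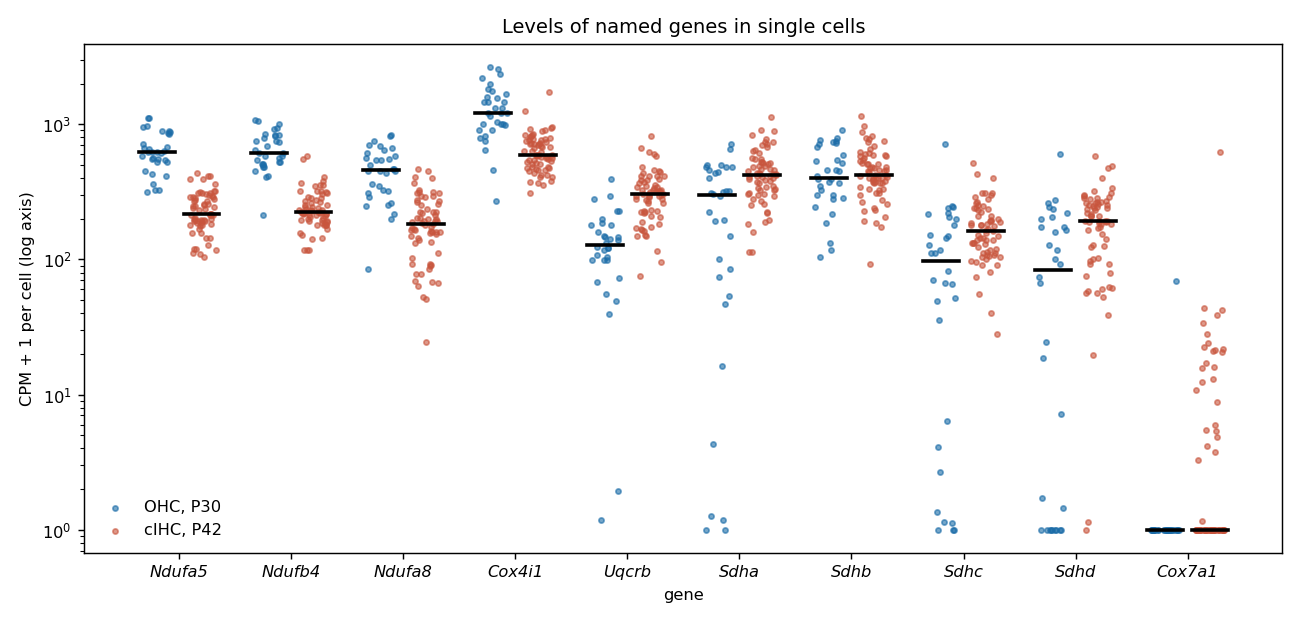
CPM per cell with 1 added, on a log axis, for 10 named genes, with 1 point per cell, OHCs in blue (n = 32), cIHCs in red (n = 67) and black bars at the group medians; sideways position within a group has no meaning. Ndufa5 and Ndufb4 are lower in nearly all cIHCs (medians 618.4 and 216.8 CPM, 611.4 and 223.7 CPM), Uqcrb is higher, the Sdha, Sdhc and Sdhd points of OHCs reach down to 0 reads, and most cells of both groups have no Cox7a1 read.

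Ndufa2, a small accessory subunit of the matrix arm, had the highest ratio of the complex I subunits. It ran from 20.98 CPM through a median of 282.5 to 664.6 CPM in OHCs and from 159.9 through 455.2 to 909.7 CPM in cIHCs. The pooled log2 ratio was 0.68 (0.66 to 0.69), and 77.5% of cell pairs had the higher value in the cIHC. It shares 66 exon bases with Tmco6 on the other strand, and whether the counting used strand is not given in the sources used here. Ndufa4, which carries a complex I name but is now placed in complex IV, had the highest pooled CPM of the group and was close in both, with medians of 679.3 and 577.9 CPM and a log2 ratio of -0.24. Its paralog Ndufa4l2 had no read in either group, as did the pseudogene Ndufa11b, and the pseudogene Ndufs6b had 1 and 4 reads in all.

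The 8 assembly factors of complex I, which help build the complex and are not part of the finished enzyme, had a higher median ratio than the subunits. Detection differed, however: Ndufaf1, Ndufaf2, Ndufaf5, Ndufaf6 and Ndufaf7 had reads in only 8 to 16 OHCs, against 28 to 60 cIHCs. The part of detection in this contrast was not tested, and 5 of the 8 factors lay below the median of all genes. The median log2 ratio of the 8 was 0.16, with 5 higher and 3 lower, but -0.03 with TMM scaling, where 3 were higher and 5 lower. Ndufaf3 had the highest ratio, with a median of 43.99 CPM in OHCs (0 to 160.3) and 88.9 CPM in cIHCs (0 to 393.5) and a log2 ratio of 0.97 (0.95 to 1.00). It shares 48 exon bases with Impdh2 on the other strand, and its ratio was 0.01 among cells with Y-linked reads and 2.18 among cells with Xist reads. Ndufaf6 had the lowest ratio, -0.70, but had reads in 9 OHCs and 28 cIHCs alone. Its ratio was above 0 among cells with Xist reads and in the shared range of genes with reads. Ndufaf8 was the most abundant in the pooled OHCs, at 123.8 CPM. In the pooled cIHCs it had 105.5 CPM, beside 105.8 CPM for Ndufaf3. Its log2 ratio was -0.23, and -0.54 for titles 1 to 20.

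Complex II was the complex whose summed level was higher in cIHCs. Summed over its 4 genes, the level ran from 266.1 CPM through a median of 955.5 to 1459 CPM in OHCs and from 509.8 through 1264 to 2801 CPM in cIHCs. The highest cIHC was replicate 49, and the next highest had 1808 CPM. In 75.7% of cell pairs the cIHC had the higher value, 17 cIHCs lay above the highest OHC, and the pooled log2 ratio was 0.43 (0.24 with TMM scaling). As a share of all members in the same cell, which does not depend on the scaling of the library, complex II had a median of 2.72% in OHCs (0.84 to 4.801%) and 4.48% in cIHCs (2.16 to 7.91%). By that share 90.2% of cell pairs had the higher value in the cIHC, and 29 of 67 cIHCs lay above every OHC. The share also rises where the other members fall, and the sum of all members was lower in cIHCs, as given above. The medians were 5.01% for titles 1 to 20 and 4.43% for titles 21 to 67, both above that of OHCs.

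The difference in complex II came from 3 of its 4 genes. Sdha, the flavoprotein that oxidises succinate, ran from 0 CPM through a median of 300.1 to 710.2 CPM in OHCs and from 112.2 through 417.1 to 1136 CPM in cIHCs, and its log2 ratio was 0.68 (0.67 to 0.69). Sdhc, a membrane anchor of the complex, had a median of 96.0 CPM in OHCs (0 to 714.8) and 160.1 CPM in cIHCs (27.03 to 514.9), with a ratio of 0.66 (0.64 to 0.68). Sdhd, the other membrane anchor, had a median of 82.2 CPM in OHCs (0 to 604.0) and 192.2 CPM in cIHCs (0 to 577.5), with a ratio of 0.86 (0.84 to 0.87). None of the 3 reached 2-fold, and all 3 exceeded 1.5-fold. The sets of cIHCs differed here: Sdha was at 1.13 for titles 1 to 20 and 0.50 for titles 21 to 67, Sdhc at 0.39 and 0.74, and Sdhd at 0.19 and 1.02. At the upper end, 8 cIHCs lay above every OHC for Sdha, and none did for Sdhc or Sdhd. At the lower end, 11 OHCs lay below every cIHC for Sdha and 9 for Sdhc, while for Sdhd both groups reached down to 0 CPM.

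Reads of Sdhd were found in 23 of 32 OHCs (71.9%) and 66 of 67 cIHCs (98.5%). For Sdha these counts were 30 and 67 cells, and for Sdhc 29 and 67. The number of genes with reads also differed between the groups, as given above. Its Spearman correlation with the summed level of complex II, given as a description, was 0.34 over the 32 OHCs and 0.10 over the 67 cIHCs. Between the 2 OHCs and 36 cIHCs in the shared range of genes with reads, the ratio of Sdha was -0.46, of Sdhc -0.40 and the median of the complex 0.05. Every value given for the shared range rests on these 2 OHCs. The part of detection in the difference of complex II was not tested. Sdhb, the iron-sulfur subunit, had reads in every cell, medians of 402.0 CPM (103.5 to 906.9) and 419.3 CPM (92.0 to 1142), and a ratio of 0.02, which was -0.17 with TMM scaling and also for titles 1 to 20.

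Complex III, the cytochrome bc1 complex, passes electrons from ubiquinol to cytochrome c. Its 9 genes summed to a median of 3365 CPM in OHCs (2221 to 4276) and 2768 CPM in cIHCs (2073 to 7472), the highest cIHC being replicate 49. Above the OHC median lay 0 of the 20 cIHCs of titles 1 to 20 and 11 of the 47 of titles 21 to 67. The median log2 ratio over genes was -0.10, with 2 higher and 7 lower under both scalings, and it was 0.29 among cells with Xist reads. The 2 core proteins and the redox subunits Cyc1 and Uqcrfs1 stayed close to 0, from -0.10 to 0.36, whereas the 5 small subunits spread from -0.75 to 1.20. Uqcr11, among these, had a median of 699.4 CPM in OHCs (361.8 to 1399) and 429.8 CPM in cIHCs (178.7 to 1014), and 65 of 67 cIHCs lay below the OHC median. Its log2 ratio was -0.75 (-0.75 to -0.74).

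Uqcrb, the ubiquinone-binding protein of the complex, went in the opposite direction. It ran from 0.18 CPM through a median of 126.8 to 394.9 CPM in OHCs and from 74.7 through 301.9 to 819.5 CPM in cIHCs. The groups overlapped, 64 of 67 cIHCs lay above the OHC median, and 88.8% of cell pairs had the higher value in the cIHC. The pooled log2 ratio was 1.20 (1.18 to 1.21), or 2.29-fold. It was 1.00 with TMM scaling, 0.47 among cells with Y-linked reads and 1.52 among those with Xist reads. For titles 1 to 20 it was 0.83 and so under 2-fold, and for titles 21 to 67 1.30. Uqcrb shares 50 exon bases with Gm10767 on the other strand.

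Cycs, cytochrome c itself, carries electrons from complex III to complex IV and is also a trigger of apoptosis when released. It ran from 128.6 CPM through a median of 429.5 to 898.1 CPM in OHCs and from 117.2 through 324.4 to 1227 CPM in cIHCs. The highest cIHC was replicate 49, and the next highest had 784.3 CPM. The ranges nearly coincided, with 56 of 67 cIHCs below the OHC median and a log2 ratio of -0.30 (-0.31 to -0.28). In the shared range of genes with reads, with its 2 OHCs, the ratio was 0.20, and for titles 1 to 20 it was -0.52.

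Complex IV, cytochrome c oxidase, showed the lowest level relative to OHCs. Its summed level ran from 5921 CPM through a median of 7807 to 12086 CPM in OHCs and from 3466 through 5118 to 12332 CPM in cIHCs. The highest cIHC was replicate 49 and the next highest, at 7459 CPM, was below the OHC median. Of 67 cIHCs, 53 lay below every OHC, 3.31% of cell pairs had the higher value in the cIHC, and the pooled log2 ratio was -0.61. Of its 19 symbols 12 reached 10 CPM, and 11 of these were lower, under both scalings, with a median of -0.48 (-0.51 without replicate 49, -0.64 for titles 1 to 20 and -0.40 for titles 21 to 67). All 20 cIHCs of titles 1 to 20 and 33 of the 47 of titles 21 to 67 lay below every OHC in summed level.

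Cox4i1 encodes the ubiquitous form of subunit 4, which binds ATP and tunes the enzyme. It ran from 270.7 CPM through a median of 1212 to 2649 CPM in OHCs and from 310.4 through 596.0 to 1747 CPM in cIHCs. No cIHC lay below the lowest OHC, yet 65 of 67 lay below the OHC median, and the pooled ratio was -1.03 (-1.04 to -1.03). Between cells in the shared range of genes with reads it was -0.88 and for titles 21 to 67 -0.94, both under 2-fold, and for titles 1 to 20 it was -1.37. Cox4i1 shares 154 exon bases with Emc8 on the other strand. Cox8a, a small membrane subunit, ran from 1090 CPM through a median of 2026 to 4589 CPM in OHCs and from 678.3 through 1078 to 2277 CPM in cIHCs. Of 67 cIHCs 34 lay below every OHC, and the log2 ratio was -0.86 (-0.87 to -0.86). Cox6b1, which links the monomers of the dimer, had a ratio of -0.46 with medians of 718.5 and 500.9 CPM.

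Several subunits of complex IV have tissue isoforms, and in both groups the ubiquitous forms had reads in most or all cells while the others had few or none. The processed pseudogene Cox6c2 pooled to 0.37 and 0.19 CPM. The heart and muscle forms Cox6a2 and Cox8b and the testis form Cox7b2 had no read in any of the 99 cells. Cox6a1, the non-muscle partner of Cox6a2, had medians of 902.3 and 823.4 CPM and a ratio of -0.18, and Cox7a2, the non-muscle partner of Cox7a1, had 510.3 and 346.9 CPM and a ratio of -0.50. Cox7b was at -0.24, but 0.02 among cells with Xist reads, and Cox7a2l, a supercomplex factor related to Cox7a2, was at -0.14, but 0.56 in the shared range of genes with reads. The muscle form Cox7a1 was the exception by ratio, 3.14 (3.00 to 3.28), but at low level: 1.86 CPM in the pooled OHCs, all of it from 1 cell at 68.6 CPM, and 16.3 CPM in the pooled cIHCs. Reads were found in 27 of 67 cIHCs (40.3%), with a median of 0 CPM and a maximum of 620.9 CPM, and 62.8% of the reads came from replicate 49. Without that cell its pooled ratio was 1.73 and it no longer reached 10 CPM, and among cells with Y-linked reads the ratio was -0.16.

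The other rare isoforms were found in a few cIHCs and had almost no OHC read. The lung-enriched Cox4i2 had 104 reads in 5 cIHCs and none in OHCs. Against a floor of 3 counts set for the OHC group, this gives a level 15.4-fold higher. In titles 21 to 67 alone its log2 ratio against that floor was -0.020. The testis forms Cox6b2 and Cox8c had 1338 reads in 6 cIHCs and 1139 reads in 5 cIHCs, against 1 read and no read in OHCs. Cox8c was 169-fold higher against the same floor. Cox6b2 was 595-fold higher against its 1 OHC read, with a counting interval for the log2 ratio of 6.74 to 14.5. All 3 genes pooled to under 3 CPM in cIHCs, and 1 cell gave between 38.6% and 48.1% of the reads of each. These folds rest on amplified reads of few cells and set no lower limit on the difference.

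Complex V, the ATP synthase, was lower as a whole while its parts differed. The summed level had a median of 10300 CPM in OHCs (7953 to 13332) and 8360 CPM in cIHCs (5560 to 19800), with 21 cIHCs below every OHC. The highest cIHC was replicate 49, and the next highest had 10747 CPM. The cIHC was the higher in 6.09% of cell pairs for titles 1 to 20 and in 16.8% for titles 21 to 67. The median log2 ratio over its 17 genes was -0.42, with 5 higher and 12 lower, or 3 and 14 after TMM scaling. All 5 small membrane subunits outside the c-ring, Atp5j2, Atp5k, Atp5l, Atp5md and Atp5mpl, were lower, from -0.74 to -0.56, with a median of -0.67. The 5 genes of the catalytic head and central stalk had a median of -0.37, from -0.75 for Atp5e to 0.21 for Atp5a1, and the 4 of the peripheral stalk a median of -0.15. This division by role was made after the values were seen.

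Atp5h, the d subunit of the peripheral stalk, had the lowest ratio of complex V. It ran from 372.2 CPM through a median of 857.7 to 1696 CPM in OHCs and from 221.3 through 470.1 to 720.1 CPM in cIHCs. All 67 cIHCs lay below the OHC median and 23 of 32 OHCs above every cIHC, with a log2 ratio of -0.90 (-0.90 to -0.89). Atp5b, the catalytic beta subunit, had the highest pooled CPM of the complex and nearly equal levels, with medians of 1565 and 1440 CPM and a ratio of -0.16, which was 0.27 among cells with Xist reads. Atp5j, also in the peripheral stalk, had a ratio of 0.28 and shares 397 exon bases with Gabpa on the other strand.

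The c-ring, the rotor that proton flow turns, is built from 1 mature protein that 3 genes encode. Atp5g1 had medians of 265.9 CPM in OHCs and 282.6 CPM in cIHCs and a log2 ratio of 0.07, which was below 0 with TMM scaling and was -0.31 for titles 1 to 20 and 0.18 for titles 21 to 67. Atp5g2 had medians of 313.3 and 214.6 CPM and a ratio of -0.42. Atp5g3 had medians of 316.1 and 384.1 CPM and a ratio of 0.34, the highest of complex V, and it stayed above 0 under every alternative run, at 0.14 or more.

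Between genes, levels were compared per kilobase of exon, with exon lengths from GENCODE M21 for the 85 members that reached 10 CPM and had a single match. The order of the members was much the same in both groups, with a Spearman correlation of 0.94 across 85 members, given as a description of genes that share their libraries. Cox8a was the highest in both, at 3508 CPM per kb in OHCs and 1930 CPM per kb in cIHCs, followed in both by Cox6a1, at 1322 and 1168 CPM per kb. Ndufa5 went from rank 7 to rank 30, Ndufb4 from 21 to 52 and Ndufa8 from 11 to 29. In the other direction Ndufa2 went from 13 to 3 and Uqcrb from 50 to 12. By class the median over genes was 198.5 CPM per kb in OHCs and 172.3 CPM per kb in cIHCs for complex I subunits, 355.7 and 271.2 CPM per kb for complex IV, and 78.8 and 135.7 CPM per kb for complex II. The assembly factors lay well below the subunits, at 24.3 and 25.7 CPM per kb.

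**Figure D4:**
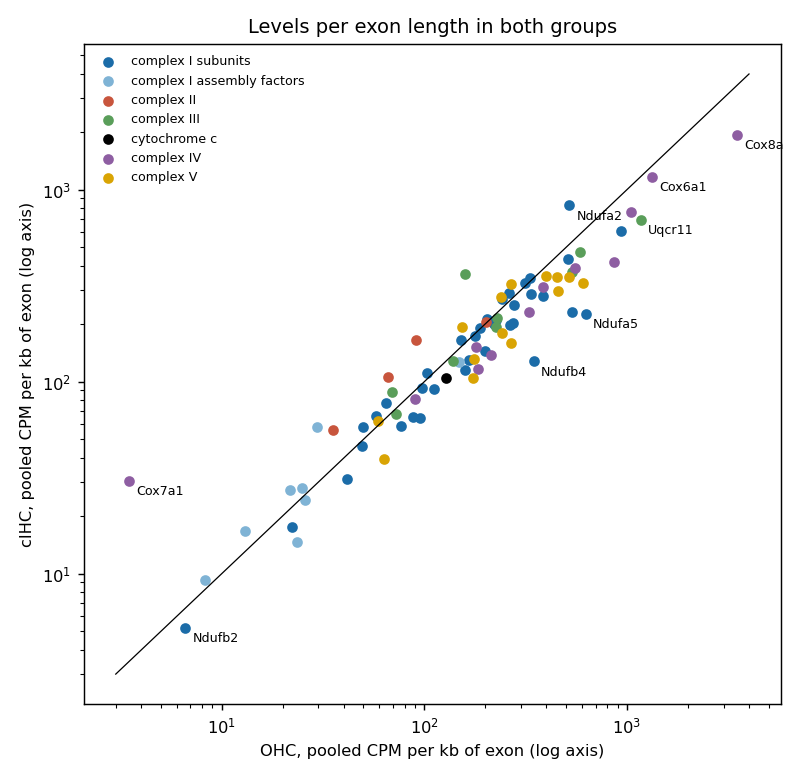
Pooled CPM per kilobase of exon in OHCs (x) and cIHCs (y), both on log axes, with 1 point per member for 85 members, coloured by class; the line marks equal levels. Most points lie a little below the line, Cox8a is at the upper right (3508 and 1930 CPM per kb), and Ndufa2 and Cox7a1 lie above the line.

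From cell to cell, the complexes varied together in different degrees. Within cIHCs the Spearman correlation of a complex's summed CPM with the sum of the other members was 0.79 for complex I subunits, 0.74 for complex IV, 0.64 for complex V and 0.60 for complex III over 67 cells, and 0.14 for complex II. Within OHCs the same values over 32 cells were 0.44, 0.39, 0.66 and 0.34, and -0.01 for complex II. The 2 sets of cIHCs differ in level, and within titles 21 to 67 the values were 0.81, 0.70, 0.69 and 0.59, and 0.32 for complex II. Within titles 1 to 20 they were 0.43, 0.54, 0.16 and 0.29, and -0.44 for complex II. These are descriptions of cells that share a library total, and they carry no test. The sum of all members against the number of genes with reads had a correlation of -0.36 in OHCs and -0.0006 in cIHCs, or -0.59 within titles 1 to 20 and -0.10 within titles 21 to 67.

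The partner subunits encoded in mitochondrial DNA were lower in the pooled cIHCs, but the 2 sets of cIHCs differed. Of 13 genes 12 reached 10 CPM and all 12 were lower when pooled, 5 of them (41.7%, beside 14.3% of all genes) by 2-fold, with a median log2 ratio of -0.88. Their summed level had a median of 47285 CPM in OHCs (27871 to 84631) and 27316 CPM in cIHCs (2509 to 77853), and 37 of 67 cIHCs lay below every OHC. Of these 37, 36 were of titles 21 to 67, and none of the 47 cells of that set reached the OHC median. Of titles 1 to 20, 13 cells lay above the OHC median, and replicate 11 was the only one below every OHC. The pooled sum had a log2 ratio of -0.98 for titles 21 to 67, with 12 of 12 genes lower, and of 0.11 for titles 1 to 20, with 4 genes higher and 8 lower. The summed level of the nuclear members was lower in both sets, as given above. The pooled ratios ran from -0.09 for mt-Nd5, a proton-pumping subunit of complex I, to -2.14 for mt-Atp8. The latter is a small subunit of complex V whose gene overlaps that of mt-Atp6. For titles 1 to 20 the ends were mt-Atp8 at -5.70 and mt-Nd5 at 0.54. For titles 21 to 67 they were mt-Atp6 at -1.85 and mt-Nd6 at -0.24. The 5 genes lower by 2-fold when pooled, mt-Nd3, mt-Co2, mt-Co3, mt-Atp6 and mt-Atp8, had only 13.5 to 199.1 CPM in the pooled OHCs. The others that reached 10 CPM had 1322 (mt-Nd6) to 13875 CPM (mt-Cytb) there. Their pooled ratios lay between -0.96 (mt-Nd1) and -0.09, so none reached 2-fold. What set the 5 apart was not tested. The ratio of the nuclear to the mitochondrially encoded sum within a cell had a median of 0.76 in OHCs. It was 1.23 in titles 21 to 67, where 43 of 47 cells lay above the OHC median. In titles 1 to 20 the median was 0.45 and 19 of 20 cells lay below the OHC median, the exception being replicate 11 at 8.75.

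Other mitochondrial gene lists had medians above that of the members, and these lists were drawn up with earlier results of these cells known. Of 16 citric acid cycle and pyruvate dehydrogenase genes, 10 were higher and 6 lower, with a median log2 ratio of 0.54. At 2-fold, 3 were higher (18.8%, beside 26.3% of all genes) and 0 lower, and the ends were Pdha1, a subunit of pyruvate dehydrogenase, at 2.05 and Dlat, another of its subunits, at -0.90. Of 77 mitochondrial ribosomal protein genes, 61 were higher and 16 lower, with a median of 0.42. By 2-fold, 16 were higher (20.8%, under the 26.3% of all genes) and 0 lower. The ends were Mrpl14 at -0.86, with reads in every cell, and Mrpl10 at 3.19, with reads in 3 OHCs and 37 cIHCs. For 12 genes of protein import the median was 0.32, from Tomm70a at -0.87 to Tomm7 at 1.52.

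The 37 assembly factors outside the naming rule had a median of 0.14, with 21 higher and 16 lower, or 18 and 19 after TMM scaling. At 2-fold, 9 were higher and 3 lower (24.3% and 8.11%, beside 26.3% and 14.3% of all genes). The ends were Nubpl, a complex I iron-sulfur factor, at 3.87 and Atpaf2, a complex V factor, at -1.41. Reads of Nubpl were found in 1 OHC and 33 cIHCs, and those of Atpaf2 in 23 OHCs and 39 cIHCs. For 8 genes of ATP and phosphate transport the median was 0.14, with 5 higher and 3 lower and none past 2-fold, from Vdac3 at -0.62 to Slc25a4, an ADP/ATP carrier, at 0.81. Of 10 regulators of mitochondrial gene expression, 6 were higher and 4 lower, with a median of 0.24. Their highest was Gabpa at 3.14, with 4.14 CPM in the pooled OHCs and 36.4 CPM in the pooled cIHCs. Gabpa had reads in only 3 OHCs, against 51 cIHCs. The lowest was Esrra, an estrogen-related receptor, at -1.35, with 20.8 and 8.18 CPM and reads in 16 OHCs and 15 cIHCs.

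**Figure D5:**
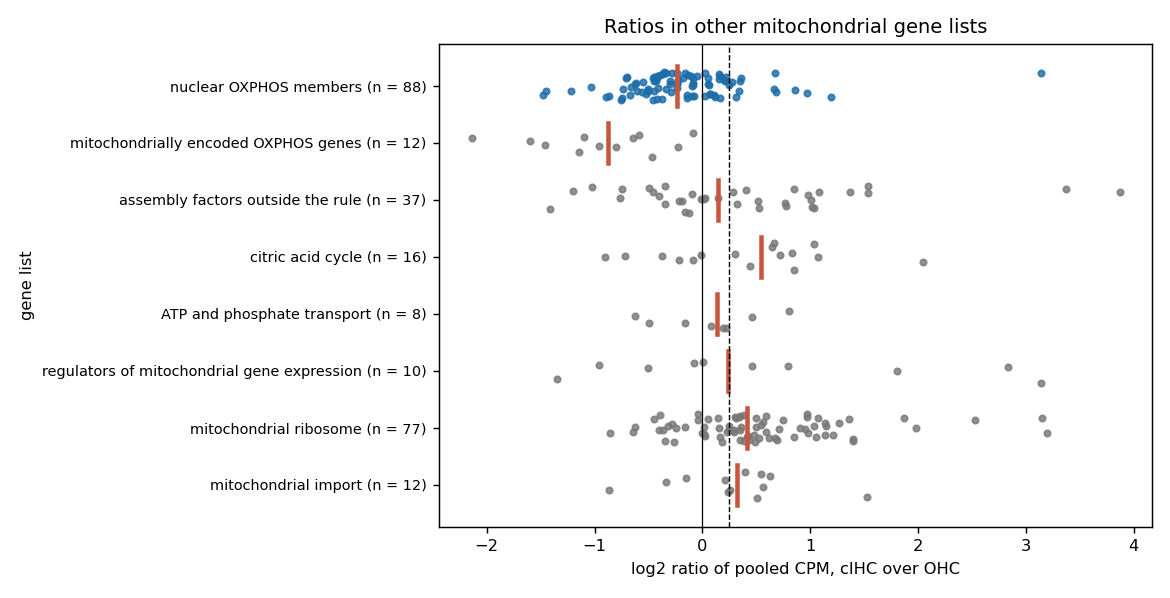
Log2 ratio of pooled CPM, cIHC over OHC, for the 88 nuclear oxidative phosphorylation members (blue) and 7 other mitochondrial gene lists (grey), with 1 point per gene that reached 10 CPM and red bars at list medians; the solid line is 0, the dashed line the median of all genes at 0.25, and vertical scatter within a list has no meaning. The medians run from -0.88 for the mitochondrially encoded genes and -0.23 for the members to 0.42 for the mitochondrial ribosome and 0.54 for the citric acid cycle.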

How the data were processed

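Gene counts of 99 cells were used as the authors deposited them, in 1 table of whole numbers, and all 99 cells entered. HISAT2 2.2.1, StringTie 2.2.1, featureCounts 2.0.1 and mm10 are named per the submitters' processing notes; strand setting, annotation and the treatment of reads with several matches are not given in the sources used here. The table held 0 columns of no sample. Each cell was assigned by its title. Columns were checked for repeats, with 0 identical pairs.

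Summed counts of each group were scaled to CPM by the group total, and each difference is the log2 of cIHC over OHC. A gene entered at 10 CPM in 1 or both groups, and 2-fold counted as a call. A sum of 0 was set to 3 counts. Intervals are exact Poisson or conditional binomial at 95%. Exon lengths and overlaps came from GENCODE M21, where 96 of the 99 members had a single match and 30 shared exon bases with another gene. The genes named are, per class, the most abundant, those of highest and lowest ratio, those past 2-fold, the Sdh genes and the isoform families. Core, series and complex III and V subgroups, the division of cIHCs by title number and the libraries left out were added after the values were seen. The value of 1 member enters the counts and is not reported here. Members and lists were chosen with earlier results of these data known. Alternatives covered pooling, scaling (edgeR 4.0.16 in R 4.3.3 for TMM), mitochondrial totals, cells by Xist or Y-linked reads at 10 CPM, gene number, thinning to 5770000 reads, the filter and 1.5-fold calls. The ratio step was tested on simulated counts for cIHC over OHC with 9172 genes, where 98% of 200 changed genes came back within 1 log2 unit. The planted changes were 2-fold or more, so recovery of smaller shifts, such as most of those given here, was not tested. The software was Python 3.11.15 (scipy 1.17.1, pandas 2.3.3, numpy 2.4.6, matplotlib 3.10.9).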

Additional observations from a re-analysis of the deposited data

How the results depend on the processing

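The median log2 ratio of the members, -0.23, stayed below 0 under every alternative run. It was -0.24 with the mean and -0.27 with the median of CPM per cell, -0.22 without the highest cell of each gene, -0.43 with TMM, -0.44 with the median of ratios, -0.28 with totals without mitochondrial genes, -0.20 in thinned cells (29 OHCs, 66 cIHCs), -0.23 with no filter, -0.28 without P42_cIHC replicate 49 and -0.23 without replicate 11. It was -0.43 for titles 1 to 20 and -0.15 for titles 21 to 67; these last 4 were chosen after seeing the data. It was -0.15 among cells with Xist reads (4 OHCs, 55 cIHCs), -0.51 among cells with Y-linked reads (24 and 12) and -0.17 in the shared range of genes with reads (2 and 36), where the cause was not tested.

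The count of members higher by 2-fold, 2, was 5 with the median of CPM per cell (44.6% of all genes), 1 with the median of ratios (22.2%), 9 with Xist reads (40.7%), 1 with Y-linked reads (28.5%), 9 in the shared range (44.8%), 5 with no filter (42.6%), 1 without replicate 49 (26.1%), 1 and 4 for titles 1 to 20 and 21 to 67 (24.9% and 26.9%), 3 in thinned cells (26.5%) and 7 at 1.5-fold (37.7%). The count lower by 2-fold, 4, was 17 with Y-linked reads (20.5%), 14 for titles 1 to 20 (17.7%) and 16 at 1.5-fold (22.2%). Elsewhere it was 3 to 6, where the share of all genes ran from 9.57% (median of CPM per cell) to 21.4% (Xist reads). Cox7a1 turned to -0.16 with Y-linked reads, and Cox4i2 to -0.020 for titles 21 to 67 against the OHC floor. Of the smaller ratios, Cycs, Cox7a2l, Ndufaf6, Sdha, Sdhc and the median of complex I subunits changed sign in the shared range, and Atp5b, Cox7b, Ndufaf6 and the median of complex III with Xist reads. Cox7a2l, Atp5g1, Sdhb and the median of the assembly factors changed sign elsewhere as well. No paired analysis was possible because title numbers are cell counters that link no cells across groups, and no result came from a test. With 1 sample per group the spread between animals is unknown. Of the members that reached 10 CPM, 7 in OHCs and 5 in cIHCs had reads in fewer than 75% of cells, and Atp5g1 crossed 0 in thinned cells.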

Other observations

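Among the 14 symbols with -ps that the naming rule left out, 4 reached 10 CPM in 1 or both pooled groups, and they are named after their values were seen. Ndufb1-ps pooled to 228.5 CPM (OHCs) and 207.1 CPM (cIHCs), with a log2 ratio of -0.14, and Ndufs5-ps to 142.9 and 118.6 CPM, with a ratio of -0.27. Cox5b-ps had 12.5 and 20.8 CPM, a ratio of 0.73. Ndufa12-ps pooled to 64.5 and 1.49 CPM, with a ratio of -5.44, whereas Ndufa12 itself, an accessory subunit of complex I, had 378.0 and 420.5 CPM, a ratio of 0.15. How reads that match both a gene and its copy were counted is not given in the sources used here.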
